A study of Homo sapiens with 6 samples.

Results

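The interferon-stimulated genes examined here were a list of 40 genes given by name, among the 58735 genes of a deposited RNA-seq table. The cells were RKO, an established human colorectal carcinoma line. Control cells carrying the vector (Vector) were compared with cells stably overexpressing the long noncoding RNA LOC101927668 (LOC_OE), and each group had 3 libraries described as biological replicates. Both lines had been made by lentiviral infection and puromycin selection, and no uninfected cells were among the libraries. No interferon or other stimulus is described for either line. Nothing says that the libraries of a group came from separately infected cells, so the p-values measure the spread between these libraries. Expression was given as FPKM, the fragments on a gene per unit of exon length, scaled by library size.

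The libraries held between 15008842 and 18410231 reads on genes. LOC101927668, annotated as ENSG00000243004, had 1, 1 and 0 reads in Vector against 231, 270 and 276 in LOC_OE, as the labels give. LOC_OE replicate 1 stood apart from its group. Across the tested genes its log2 values correlated with those of LOC_OE replicates 2 and 3 at 0.967 and 0.962, against 0.982 between replicates 2 and 3 and at least 0.982 between Vector libraries. For tested genes of the list, the fit without this library is also given in certain cases. These are where it lay on the other side of Vector from replicates 2 and 3, or moved a test past its threshold. Of 8 markers of colorectal epithelial cells, EPCAM, KRT8, KRT18 and CDX2 were at 1 FPKM or more in every library, while CDH1 was listed at 0 in all and KRT19, KRT20 and VIL1 were at or near 0. The summed level of these markers was between 39.4 and 41.5 FPKM in Vector and between 48.4 and 89.6 FPKM in LOC_OE. The highest value, in LOC_OE replicate 1, came with 67.5 FPKM of KRT18. No marker of leukocytes, fibroblasts or endothelial cells was above 0.230 FPKM in any library. The summed leukocyte markers ranged from 0.181 to 0.270 FPKM in Vector and from 0 to 0.0998 FPKM in LOC_OE, and PTPRC, the defining leukocyte surface phosphatase, was at or near 0 throughout. The part of these differences in the results was not tested.

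Interferons are secreted proteins that cells release when they sense foreign or misplaced nucleic acid. Type I interferons bind the receptor IFNAR1 and IFNAR2, and the kinases JAK1 and TYK2 then phosphorylate STAT2, which enters the complex ISGF3 with IRF9. ISGF3 binds a DNA element in the promoters of its target genes, the interferon-stimulated response element. Type II interferon acts through IFNGR1 and IFNGR2 and leads to binding of the gamma-activated site. The products of the target genes detect viral RNA, block viral entry, translation and release, and feed back on the pathway. Many of them are also expressed at a low level in cells that have not met interferon.

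The promoters show how much of this wiring the 40 genes share. RefSeq windows on GRCh38.p14, from 250 bases before to 50 bases after each start site, were at hand for 30 of the 40 genes. The element was searched as GAAANNGAAA or, on the other strand, TTTCNNTTTC. It was present in 20 of the 30 genes (66.7%), against 4.38% of all 27305 genes with such a window. The gamma-activated site, searched as TTCNNNGAA, was present in 9 of the 30 (30%), against 9.38% of all genes. Such matches describe letters and not occupancy. IRF7, USP18, OAS2, OASL, IFIT2, MX2, GBP2, TRIM22 and PML were among the 10 genes with no window, the other being IFITM2. Windows of 30 bases are given below for the lower genes in LOC_OE that had one and for a few that were highly expressed and did not pass the test. GBP1 is given as well, which was too low for that test and was lower only in an analysis of reads added later. They read in the direction of transcription, and the capitals mark the element, in some genes as overlapping copies.
IFIH1: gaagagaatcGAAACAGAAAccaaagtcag
IFI6: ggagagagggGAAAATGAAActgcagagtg
IFI27: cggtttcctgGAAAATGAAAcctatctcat
GBP1: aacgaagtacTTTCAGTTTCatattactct
ISG15: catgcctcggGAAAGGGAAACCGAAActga
BST2: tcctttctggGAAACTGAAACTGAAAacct
IFITM3: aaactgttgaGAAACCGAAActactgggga
OAS3: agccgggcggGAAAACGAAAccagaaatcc

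The IFIH1 window lies at chr2:162318686-162318715 on the minus strand, with the element 21 bases before the RefSeq start. IFIH1 held 2 more, overlapping copies farther upstream, at 159 and 153 bases. The IFI6 window is chr1:27672288-27672317 on the minus strand, where the element was 115 bases before the start and lay between further copies at 156 and 93 bases. The IFI27 window is chr14:94110631-94110660 on the plus strand. This gene has 2 start sites in RefSeq, and the same copy lay 95 bases before one and 174 bases before the other. The GBP1 window is chr1:89065316-89065345 on the minus strand, and the element there was on the opposite strand. The windows of ISG15 (chr1:1013374-1013403, plus), BST2 (chr19:17405741-17405770, minus), IFITM3 (chr11:320876-320905, minus) and OAS3 (chr12:112938452-112938481, plus) are of genes that were not called in either direction. The element was therefore found in genes that were lower and in genes that were not called. It was in 3 of the 3 lower genes that had a window. Of all 22 tested genes that had a window, those 3 included, 15 held the element.

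**Figure D1:**
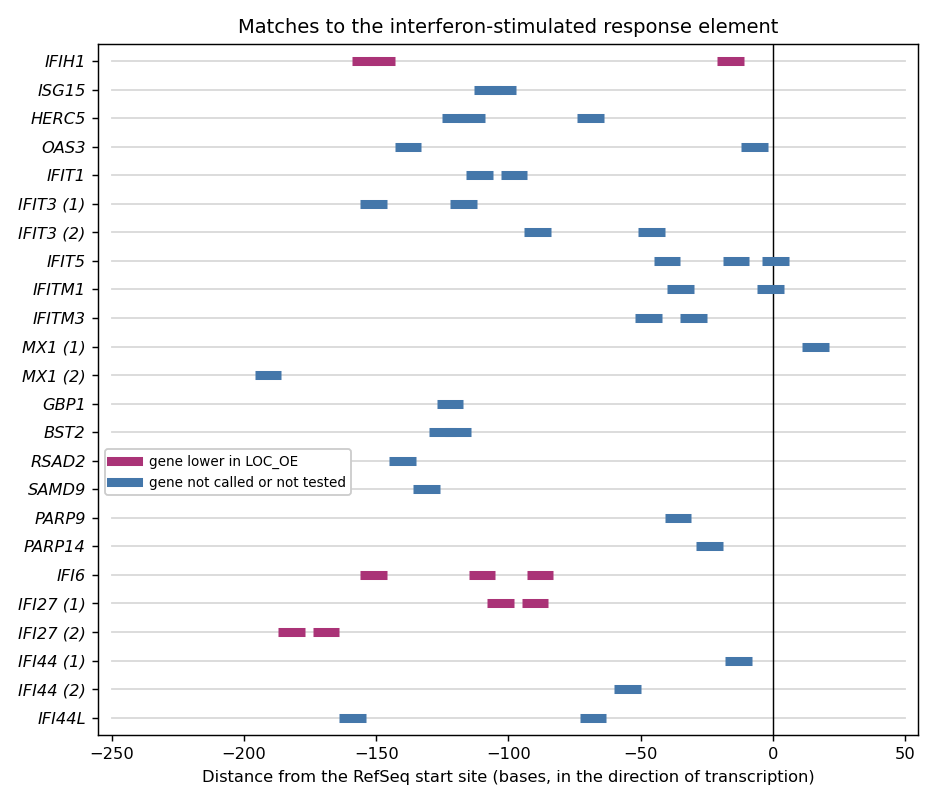
Positions of the interferon-stimulated response element (GAAANNGAAA on either strand) in the RefSeq promoter windows of the 20 interferon-stimulated genes that hold one, with distance from the start site in bases on the horizontal axis and 1 line per window (numbered where a gene has several start sites with a match). Matches in IFIH1, IFI6 and IFI27, the genes lower in LOC_OE, are purple and all others blue. Matches of both colours lay before the start, at up to 196 bases, with 1 MX1 match 11 bases after it and matches in IFIT5 and IFITM1 that reach across it.

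RKO cells, with no stimulus described, expressed the list very unevenly. A gene was tested where 3 or more libraries reached 0.5 FPKM, which was so for 28 of the 40. The highest in Vector was BST2, the membrane tether that holds budding virus particles at the cell surface, at 222 ± 4.89 FPKM (SD, n = 3). IFITM2 and ISG15 followed at 78.0 ± 2.66 and 77.4 ± 6.60 FPKM, values that did not differ beyond their spread, and IFITM3 stood at 44.2 ± 1.39 FPKM. STAT2 was at 18.9 ± 0.208 FPKM and TRIM25 at 16.1 ± 0.708 FPKM. At the low end of the tested genes, IFITM1, IFIT2, IFIT1, TRIM22 and IFIT3 were below 1 FPKM on average in Vector. The other 12 genes were below the filter, among them classical markers of an interferon response such as OAS1, MX2, RSAD2 and IFI44, and IFI44L and XAF1 had no read in any library.

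**Figure D2:**
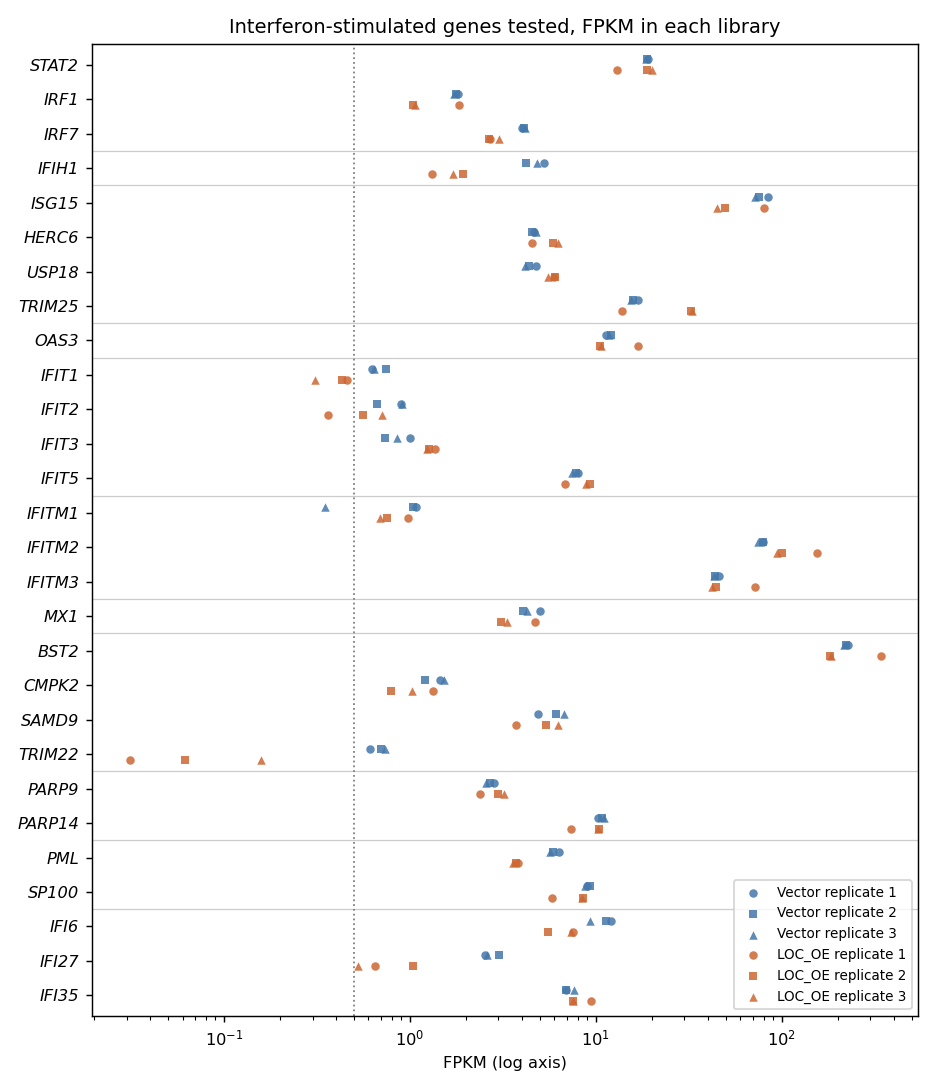
FPKM on a log axis of the 28 tested interferon-stimulated genes in each of the 6 libraries, blue for Vector and orange for LOC_OE, with a symbol for each replicate. The dotted line marks the FPKM of 0.5 used in the filter. Levels run from under 0.1 FPKM for TRIM22 in LOC_OE to 341 FPKM for BST2 in LOC_OE replicate 1, and the groups stand clearly apart for IFIH1, TRIM22 and IFI27.

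In LOC_OE, 4 of the 28 tested genes were lower and 0 were higher. The lower genes were IFIH1, IFI27, TRIM22 and IFI6. Genes were called by limma on log2(FPKM + 1) at a 1.5-fold change or more and a p-value under 0.05 after Benjamini-Hochberg adjustment over all 16061 tested genes. By the same rule 4.63% of all tested genes were called higher and 5.58% lower. TRIM22 and IFIT1 reached 0.5 FPKM in Vector libraries alone. Among the 26 genes that reached it in a library of each group, 0 were called higher and 3 lower, against 4.55% and 4.61% of all such genes. At an adjusted p-value under 0.05 with no fold threshold, 1 of the 28 was higher and 6 were lower, against 10.7% and 9.74% of all tested genes. At an unadjusted p-value under 0.05 the counts were 3 and 6, against 19.4% and 17.1% of all tested genes. Fold changes on this scale understate those of low genes. The median log2 fold change (log2FC) of the 28 genes was −0.19, with 12 above 0 and 16 below 0, against 0.02 over all tested genes. It was on the same side in each LOC_OE library, at −0.14, −0.12 and −0.09 against the Vector mean. The median was −0.11 without LOC_OE replicate 1 and −0.076 for the list with no filter on low values. The FPKM of the groups did not overlap for 8 genes that were below Vector and 3 that were above, while 20.9% and 24.4% of all tested genes were separated in these directions and 45.3% in either. In bulk RNA, fewer cells expressing a gene and less RNA of it per cell cannot be told apart.

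**Figure D3:**
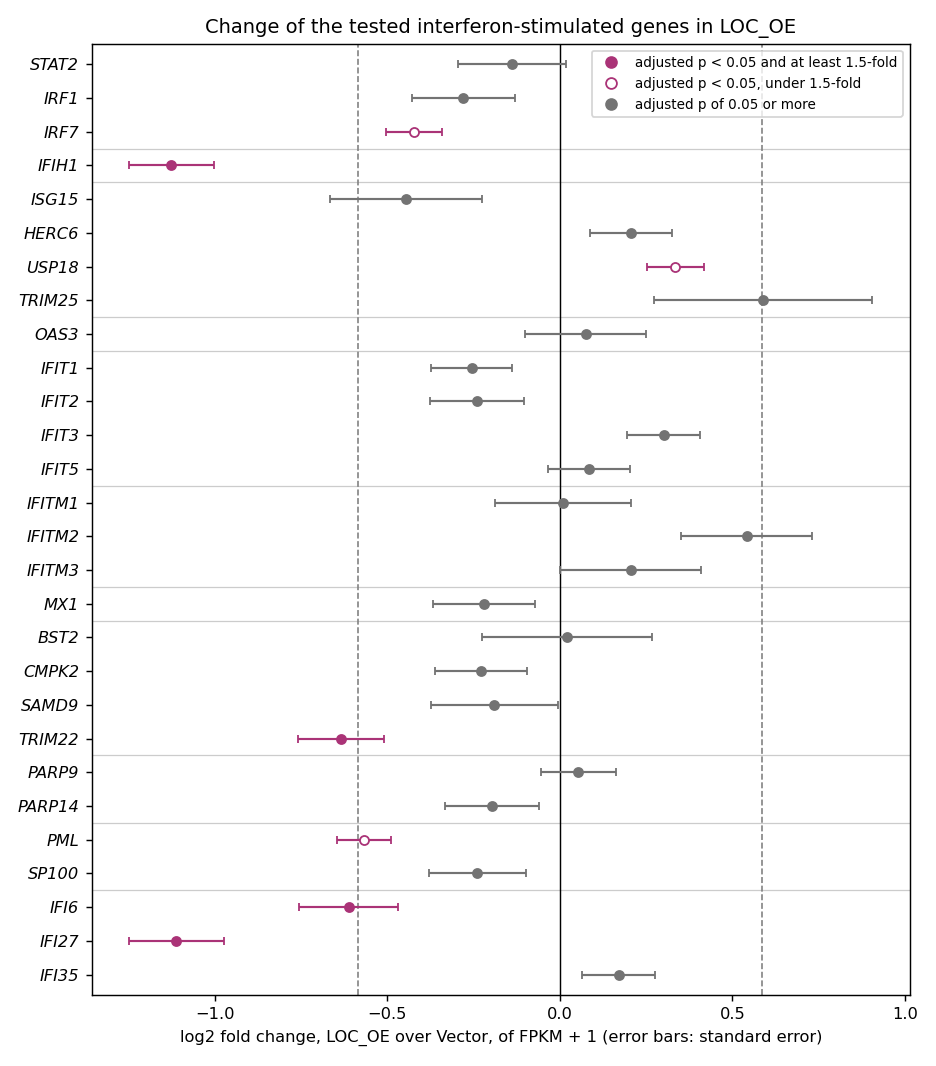
Log2 fold change of FPKM + 1 in LOC_OE over Vector for the 28 tested interferon-stimulated genes, with bars for the standard error of the limma fit and dashed lines at a 1.5-fold change. Filled purple points (IFIH1, TRIM22, IFI6 and IFI27) passed both the adjusted p-value and the fold threshold, open purple points (IRF7, USP18 and PML) the adjusted p-value alone, and grey points neither.

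IFIH1, which encodes the cytosolic sensor MDA5 for long double-stranded RNA, had the largest decrease of the tested genes on the log2(FPKM + 1) scale. It was at 5.26, 4.23 and 4.84 FPKM in the Vector libraries and at 1.32, 1.93 and 1.71 FPKM in the LOC_OE libraries. Every LOC_OE library was below every Vector library, and each value rests on at least 108 reads. The mean fell from 4.78 ± 0.519 to 1.65 ± 0.308 FPKM (SD, n = 3), which was 2.89-fold lower. The log2FC was −1.13 (standard error, SE, 0.123, adjusted p = 0.00555). The call held in all 6 leave-one-out fits, with a log2 fold change between −1.20 and −1.03. The gene (ENSG00000115267) lies at chr2:162267079-162318703 on the minus strand.

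IFI27 and IFI6, a pair of small interferon-induced proteins that localize to mitochondria and other membranes, were also lower. IFI27 (ENSG00000165949, chr14:94104836-94116698) was at 2.54, 3.03 and 2.62 FPKM in Vector and at 0.648, 1.04 and 0.525 FPKM in LOC_OE. These groups were far apart, and the mean was 3.70-fold lower in LOC_OE. The log2FC was −1.11 (SE 0.137, adjusted p = 0.00705), and the adjusted p-value moved to 0.0509 without Vector replicate 2. IFI6 (ENSG00000126709, chr1:27666061-27672218) was at 12.1, 11.4 and 9.32 FPKM in Vector and at 7.51, 5.55 and 7.40 FPKM in LOC_OE. The groups did not overlap, but the gap between them was smaller than the range of the Vector libraries. The mean of IFI6 was 1.60-fold lower, with a log2FC of −0.61 (SE 0.143, adjusted p = 0.0306). When single libraries were left out this call was lost in 5 of 6 fits, with adjusted p-values of up to 0.120, and it held without LOC_OE replicate 1. IFI35, the other tested gene of the list with an IFI name and number, was at 6.92, 6.91 and 7.60 FPKM in Vector. In LOC_OE it was at 9.43, 7.55 and 7.59 FPKM (adjusted p = 0.294).

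TRIM22, a ubiquitin ligase that restricts viral transcription, had few reads in LOC_OE. The Vector libraries held 69, 78 and 82 reads on TRIM22 (0.611, 0.698 and 0.732 FPKM), and the LOC_OE libraries held 3, 6 and 14 (0.0311, 0.0621 and 0.158 FPKM). The mean FPKM was 8.11-fold lower in LOC_OE. The log2 fold change of FPKM + 1 was −0.63 (SE 0.124, adjusted p = 0.0196), and on the reads themselves limma voom gave −3.24 (SE 0.463, adjusted p = 0.00285). TRIM22 passed the filter through the Vector libraries alone, so without any one of them it was not tested, and without LOC_OE replicate 2 its adjusted p-value was 0.0504. It was also not called after quantile normalization (log2FC −0.55) or with the replicate number as a block (adjusted p = 0.0550). The gene (ENSG00000132274) lies at chr11:5689689-5737089 on the plus strand, inside the annotated span of TRIM5 on the opposite strand (chr11:5663557-5938619). It shared no annotated exon bases with TRIM5. TRIM5, the retroviral capsid restriction factor, was not in the list of 40, and it was at 5.04, 4.56 and 4.26 FPKM in Vector and 1.72, 1.99 and 1.25 FPKM in LOC_OE (log2FC −1.09, adjusted p = 0.00650). Both of these neighbours were thus lower in every LOC_OE library.

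PML, which builds the nuclear bodies that interferon enlarges, stood just outside the call. PML was at 6.32, 5.89 and 5.68 FPKM in Vector and at 3.80, 3.71 and 3.57 FPKM in LOC_OE, with the LOC_OE libraries close together and well below Vector. Its log2FC was −0.57 (SE 0.0780, adjusted p = 0.00864), just short of the fold threshold on the log2(FPKM + 1) scale, while its mean FPKM was 1.61-fold lower. PML was past both thresholds in 3 of the 8 alternative fits of all libraries and without Vector replicate 3. SP100, the other nuclear body component, was at 9.03, 9.29 and 8.79 FPKM in Vector and at 5.85, 8.50 and 8.45 FPKM in LOC_OE (adjusted p = 0.271). Its low value was in LOC_OE replicate 1, and without that library its log2FC moved from −0.24 to −0.08 (adjusted p = 0.256).

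The transcription factors of the list differed in their patterns. IRF7, which amplifies type I interferon production, was at 4.02, 4.10 and 4.15 FPKM in Vector and at 2.69, 2.68 and 3.03 FPKM in LOC_OE. All LOC_OE values of IRF7 lay below Vector, with a log2FC of −0.42 (SE 0.0807, adjusted p = 0.0183), under the fold threshold. The adjusted p-value of IRF7 reached 0.0920 when single libraries were left out and was below 0.05 in 2 of those 6 fits. IRF1, the factor through which interferon gamma activates many targets, was at 1.82, 1.77 and 1.73 FPKM in Vector and at 1.83, 1.04 and 1.06 FPKM in LOC_OE. Thus 2 of the LOC_OE libraries were low and replicate 1 was level with Vector (log2FC −0.28, adjusted p = 0.227). Without replicate 1 the log2FC of IRF1 was −0.43 (adjusted p = 0.0147), under the fold threshold. STAT2, the ISGF3 subunit that carries the activation domain, was at 19.1, 18.9 and 18.7 FPKM in Vector and at 13.1, 18.9 and 20.0 FPKM in LOC_OE (adjusted p = 0.563), with replicate 1 as the low library. The log2FC of STAT2 was −0.14, and 0.04 without that library (adjusted p = 0.535). IRF9, the DNA-binding subunit of ISGF3, was below the filter, with 33, 24 and 22 reads in Vector against 28, 23 and 26 reads in LOC_OE. Of the IRF9 exon bases, 48.4% are shared with the overlapping gene AL136295.5 on the same strand, so its level is uncertain.

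ISG15 is a ubiquitin-like protein that is joined to other proteins by HERC5 and TRIM25 and removed by USP18, which also restrains the type I receptor. USP18 was the 1 tested gene of the list with an increase at an adjusted p-value under 0.05. It was at 4.76, 4.38 and 4.19 FPKM in Vector and at 5.98, 6.03 and 5.56 FPKM in LOC_OE, with no overlap. The log2FC of USP18 was 0.33 (SE 0.0815, adjusted p = 0.0347), under the fold threshold. That p-value stayed below 0.05 in 1 of 6 fits with a library left out. Over the 8 alternative fits of all libraries it reached 0.382, and the log2FC fell as low as 0.12. Reads of USP18 are uncertain, since the genome holds near-identical copies of parts of this gene, USP41 among them. ISG15 was at 84.6, 75.8 and 71.7 FPKM in Vector and at 80.4, 49.7 and 44.8 FPKM in LOC_OE, where replicates 2 and 3 were below all Vector libraries and replicate 1 was among them. With all libraries the log2FC of ISG15 was −0.45 (SE 0.219, adjusted p = 0.194), and without LOC_OE replicate 1 it was −0.70 (SE 0.0852, adjusted p = 0.00300), past both thresholds. The same was so after rescaling to the same sum or quantile normalization of all libraries. TRIM25 showed the opposite arrangement. It was at 16.8, 15.9 and 15.4 FPKM in Vector and at 13.9, 32.5 and 32.8 FPKM in LOC_OE, so that replicates 2 and 3 were far above Vector and replicate 1 was below it. Its log2FC was 0.59 (SE 0.316, adjusted p = 0.229) with all libraries and 0.98 (SE 0.0520, adjusted p = 0.000651) without LOC_OE replicate 1. HERC6, a relative of HERC5, was between 4.54 and 4.78 FPKM in Vector and at 4.53, 5.92 and 6.29 FPKM in LOC_OE (log2FC 0.21, adjusted p = 0.263), and without LOC_OE replicate 1 its log2FC was 0.33 (adjusted p = 0.0109). HERC5 itself was below the filter with 21, 16 and 18 reads in Vector against 10, 11 and 11 in LOC_OE.

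The IFITM proteins block fusion of virus with the cell membrane. IFITM2 was at 79.7, 79.4 and 75.0 FPKM in Vector and at 155, 101 and 94.6 FPKM in LOC_OE. All LOC_OE libraries were above Vector, replicate 1 by the most, and the spread within LOC_OE kept the adjusted p-value at 0.0911 (log2FC 0.54, SE 0.190, limma). Without LOC_OE replicate 1 the log2FC of IFITM2 was 0.32 (adjusted p = 0.00764), a smaller difference with less spread. IFITM3 was at 45.8, 43.7 and 43.2 FPKM in Vector and at 71.9, 44.3 and 42.0 FPKM in LOC_OE, so that replicate 1 alone was above Vector (log2FC 0.21, adjusted p = 0.507). Without it the log2FC of IFITM3 was −0.04 (adjusted p = 0.607). IFITM1 was at 1.09, 1.05 and 0.348 FPKM in Vector and at 0.983, 0.751 and 0.693 FPKM in LOC_OE, on 22 reads or fewer, with a log2FC of 0.01 and of −0.06 without LOC_OE replicate 1 (adjusted p = 0.976 and 0.863). These genes are close copies, and IFITM1 shares 351 exon bases with the far more abundant IFITM2 in the annotation (32.5% of its exons), so the level of IFITM1 is uncertain. BST2, like IFITM3, was above Vector in replicate 1 alone, at 227, 223 and 217 FPKM in Vector and at 341, 183 and 184 FPKM in LOC_OE. Its log2FC was 0.02 with all libraries (adjusted p = 0.958) and −0.28 without LOC_OE replicate 1 (adjusted p = 0.00875), so the direction for BST2 turned with that library.

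The IFIT proteins bind viral RNA and hold back its translation. In this family IFIT1 was at 0.624, 0.747 and 0.641 FPKM in Vector and at 0.460, 0.433 and 0.310 FPKM in LOC_OE, all LOC_OE libraries being lower (adjusted p = 0.170). IFIT1 also passed the filter through Vector alone. IFIT3 lay the other way, at 1.01, 0.734 and 0.855 FPKM in Vector and at 1.37, 1.28 and 1.24 FPKM in LOC_OE (adjusted p = 0.0936). IFIT2 and IFIT5 had overlapping groups, with adjusted p-values of 0.253 and 0.644. Without LOC_OE replicate 1 the log2FC of IFIT5 moved from 0.08 to 0.20 (adjusted p = 0.0413). The family, whose genes lie side by side on chromosome 10, thus held 2 log2 fold changes above 0 and 2 below, none past the threshold. OAS3, an enzyme that makes the activator of RNase L, was at 11.4, 12.0 and 11.8 FPKM in Vector and at 16.9, 10.6 and 10.7 FPKM in LOC_OE, with replicate 1 above and the others below all Vector libraries (log2FC 0.07, adjusted p = 0.791). Without replicate 1 the log2FC of OAS3 was −0.13 (adjusted p = 0.0857). MX1, a GTPase that traps incoming viral nucleocapsids, was at 5.00, 4.08 and 4.28 FPKM in Vector and at 4.72, 3.10 and 3.34 FPKM in LOC_OE (log2FC −0.22, adjusted p = 0.329). Its log2FC was −0.37 without LOC_OE replicate 1 (adjusted p = 0.0292). The remaining tested genes, CMPK2, SAMD9, PARP9 and PARP14, had overlapping groups and log2 fold changes between −0.23 and 0.05, with adjusted p-values of at least 0.263. For PARP9 the log2FC was 0.15 without LOC_OE replicate 1 (adjusted p = 0.194).

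How far LOC_OE replicate 1 differed can be read over the whole list. Between LOC_OE replicates 2 and 3 the median absolute difference of the 28 genes was 0.0766 on the log2 scale, and between replicate 1 and their mean it was 0.324. Over all tested genes these medians were 0.105 and 0.280. Of the 28 genes, 3 had replicate 1 above and replicates 2 and 3 below all Vector libraries, and 4 had the reverse, against 859 and 756 of all 16061 tested genes. In the fit without this library, 1 gene (TRIM25) was called higher and 5 (IFIH1, ISG15, TRIM22, IFI6 and IFI27) were called lower, against 4.50% and 6.04% of all 15651 genes tested there. The adjusted p-value was under 0.05 for 5 genes that were higher and 10 that were lower, against 19.8% and 16.8% of all genes tested there, and 5 genes changed the sign of their log2 fold change. Those 5 were STAT2, OAS3, IFITM1, IFITM3 and BST2, and their values with all libraries had not passed the test. The 8 tested genes with all 3 LOC_OE libraries below Vector were IFIH1, IFI27, TRIM22, IFI6, PML, IRF7, IFIT1 and SP100. For 3 others all LOC_OE libraries were above Vector. Of all tested genes, 20.9% were separated downward and 24.4% upward.

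**Figure D4:**
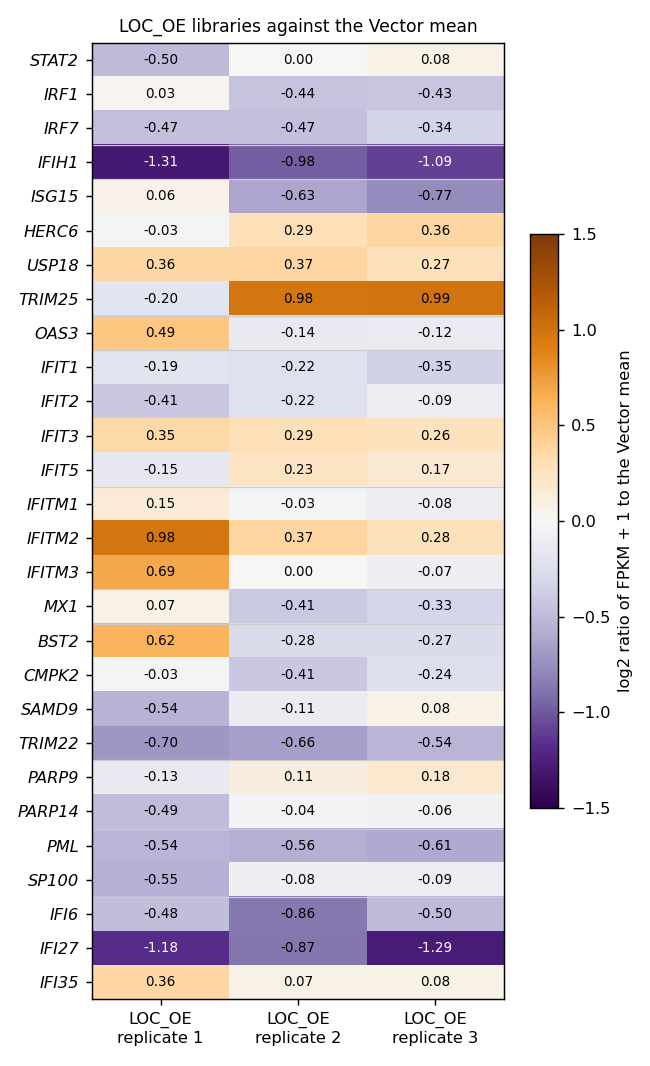
Log2 ratio of FPKM + 1 in each LOC_OE library to the Vector mean for the 28 tested interferon-stimulated genes, printed in each cell and coloured from purple (lower) to orange (higher). IFIH1 was between −1.31 and −0.98 in all 3 libraries, while TRIM25, at −0.20, 0.98 and 0.99, and BST2, at 0.62, −0.28 and −0.27, show replicate 1 on the other side of Vector from replicates 2 and 3.

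Among the 12 genes below the filter, the guanylate-binding proteins GBP1 and GBP2, GTPases that coat intracellular pathogens and are strongly induced by interferon gamma, differed most between the groups. GBP2 had 61, 42 and 40 reads in Vector libraries against 0, 4 and 1 reads in the LOC_OE libraries. GBP1 had 31, 24 and 15 reads in Vector against 3, 6 and 2 reads in LOC_OE. Neither pair of groups overlapped. Both were tested by limma voom on the reads of genes with at least 10 reads, an analysis added after the values had been seen. There GBP2 had a log2FC of −4.72 (SE 0.787, adjusted p = 0.00487) and GBP1 of −2.30 (SE 0.565, adjusted p = 0.0223). With so few reads in LOC_OE, the size of these decreases is poorly fixed, and their Vector levels of 0.407 ± 0.0965 and 0.250 ± 0.0850 FPKM (SD, n = 3) were low. In that analysis 37 of the 40 genes could be tested, and 0 were called higher and 7 lower, namely IFIH1, TRIM22, PML, IFI6, IFI27, GBP1 and GBP2. Over all 21852 genes tested there, 4.87% were called higher and 8.00% lower. GBP2 reached 10 reads through Vector alone. Among the 32 genes of the list with at least 10 reads in each group, 0 were called higher and 6 lower, against 5.86% and 8.16% of all such genes.

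At this depth none of the other genes below the filter passed the test. Their voom adjusted p-values were at least 0.338 where they could be tested. The groups of HERC5 did not overlap, with all LOC_OE libraries lower (voom adjusted p = 0.338). OAS1 had 2, 3 and 2 reads in Vector against 0, 0 and 7 in LOC_OE, and OAS2 and OASL had 7 reads or fewer in each library. RSAD2, the antiviral enzyme viperin, had 9, 3 and 3 reads in Vector against 1, 5 and 6 in LOC_OE. MX2 and IFI44 had 7 reads or fewer. IFI44L and XAF1 had 0 reads in all 6 libraries, and a count of 0 allows up to 3 reads per library. Counts cover counting error only.

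**Figure D5:**
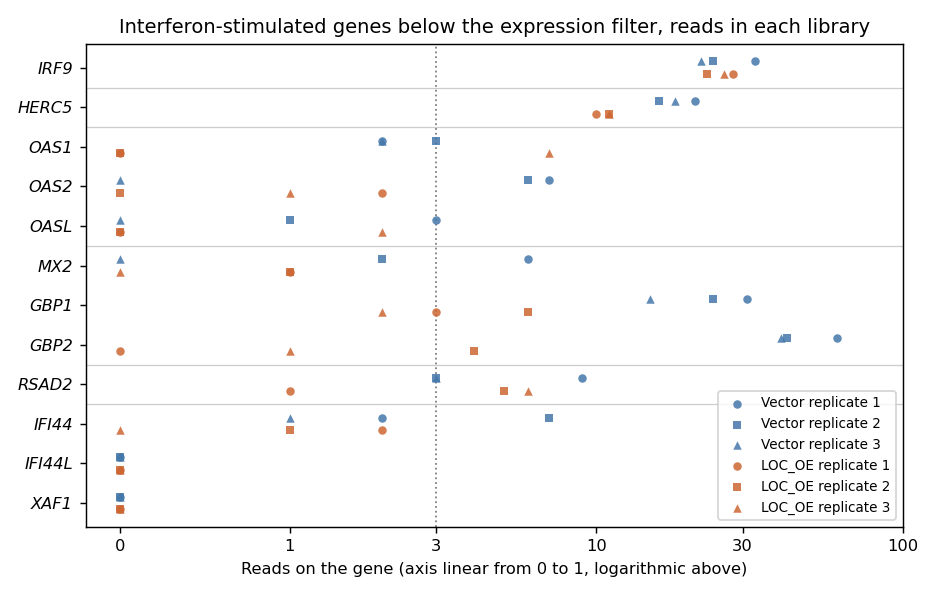
Reads in each library for the 12 interferon-stimulated genes below the expression filter, on an axis that is linear from 0 to 1 and logarithmic above, with the dotted line at 3 reads. Vector is blue and LOC_OE orange. GBP1 and GBP2 had 15 to 61 reads in Vector against 0 to 6 in LOC_OE, while the groups of IRF9, OAS1 and RSAD2 overlapped.

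The genes of the pathway upstream were examined from lists of ligands, receptors, transducers, inhibitors and sensors. Counts given for them at an unadjusted p-value under 0.05 are to be read beside 19.4% of all tested genes higher and 17.1% lower. Of 21 interferon ligand genes, 0 passed the filter, and 18 had no read in any library. IFNE, IFNK and IFNW1 had 7 reads or fewer. Of 6 receptor genes, 5 were tested by limma and 0 were called, with 2 higher and 1 lower at an unadjusted p-value under 0.05. IFNGR1 was called lower in 4 of the 8 alternative fits of all libraries, voom on reads among them, and without LOC_OE replicate 2. IFNAR1, the type I receptor chain that binds TYK2, was at 11.8, 11.0 and 12.4 FPKM in Vector and at 14.4, 15.6 and 14.7 FPKM in LOC_OE (log2FC 0.32, adjusted p = 0.0366). The ligand-binding chain of the interferon gamma receptor, IFNGR1, was at 9.37, 8.07 and 9.65 FPKM in Vector and at 4.92, 7.04 and 5.59 FPKM in LOC_OE (log2FC −0.56, SE 0.135, adjusted p = 0.0338). Both were separated between the groups and under the fold threshold. IFNGR2, the other chain of that receptor, had a log2FC of 0.30 (adjusted p = 0.0596), so its chains lay on opposite sides of 0. With single libraries left out, the adjusted p-value stayed below 0.05 in 1 of 6 limma fits for IFNAR1 and in 2 for IFNGR1. For IFNGR2 the adjusted p-value was below 0.05 in 1 of these 6 fits. Over the 8 alternative fits of all libraries it reached 0.609 for IFNAR1 and 0.0758 for IFNGR1. IFNAR2 was between 0.589 and 1.04 FPKM in Vector and between 0.502 and 0.758 FPKM in LOC_OE.

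Of the kinases and STAT genes, TYK2, JAK1, JAK2 and STAT3 were tested and were not called by limma or voom. At an unadjusted p-value under 0.05 by limma, 0 of these were higher and 3 were lower, namely TYK2, JAK2 and STAT3. TYK2 had a log2FC of −0.29 (adjusted p = 0.0419), and JAK1, JAK2 and STAT3 had values between −0.32 and −0.11 that did not pass. With single libraries left out, the adjusted p-value of TYK2 was below 0.05 in 1 of 6 fits. That of STAT3 was also below 0.05 in 1 of 6 such fits, at 0.0120. Of the 4 inhibitors 0 were called by limma or voom, with 2 higher at an unadjusted p-value under 0.05. SOCS3, which blocks the receptor kinases, and PTPN2, a phosphatase of JAK1, had log2 fold changes of 0.40 and 0.36 (adjusted p = 0.0320 and 0.0272) under the fold threshold. With single libraries left out, the adjusted p-value stayed below 0.05 in 2 of 6 limma fits for SOCS3 and in 1 for PTPN2. Over the 8 alternative fits of all libraries it reached 0.238 for SOCS3 and 0.222 for PTPN2. SOCS1 and PIAS1 did not pass.

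Besides IFIH1, 18 sensors and adaptors of nucleic acid detection were examined, of which 14 were tested by limma and 0 were called, with 5 higher at an unadjusted p-value under 0.05. TBK1 was called higher in 2 of the 8 alternative fits of all libraries, voom among them. The relative of IFIH1, DDX58 (RIG-I), was at 2.89, 2.70 and 2.96 FPKM in Vector and at 1.85, 2.65 and 2.66 FPKM in LOC_OE (adjusted p = 0.302), and their shared adaptor MAVS had a log2FC of −0.26 (adjusted p = 0.247). The kinase TBK1, which activates IRF3, was at 9.98, 9.30 and 9.28 FPKM in Vector and at 14.0, 14.7 and 15.0 FPKM in LOC_OE. The TBK1 libraries were separated, with a log2FC of 0.57 (SE 0.0752, adjusted p = 0.00795), just under the fold threshold. Without Vector replicate 1, or without LOC_OE replicate 1, TBK1 was past both thresholds. CGAS, the DNA sensor, had a log2FC of 0.40 (adjusted p = 0.0152), ADAR, which edits double-stranded RNA, 0.32 (adjusted p = 0.0355) and EIF2AK2, the kinase PKR that double-stranded RNA activates, 0.31 (adjusted p = 0.0417). With single libraries left out, the adjusted p-value stayed below 0.05 in 3 of 6 limma fits for CGAS and in 1 each for ADAR and EIF2AK2. Over the 8 alternative fits of all libraries it reached 0.171 for CGAS, 0.756 for ADAR and 0.701 for EIF2AK2. TMEM173, which encodes the adaptor STING, had at most 0.0420 FPKM in any library. ZBP1, AIM2 and DHX58 were also below the filter, with 5 reads or fewer in each library.

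A further list of 56 genes known to respond to interferon, none of them among the 40 and 6 of them also in the pathway lists, was also examined. Of these, 44 were tested, 3 were called higher and 3 lower, against 4.63% and 5.58% of all tested genes, and the median log2FC was 0.03. The lower genes were TRIM5, HELZ2, a helicase coactivator, at 8.57, 8.92 and 8.06 FPKM in Vector and 4.31, 3.79 and 3.82 FPKM in LOC_OE (log2FC −0.94, adjusted p = 0.00375), and ISG20, an RNA exonuclease, with a log2FC of −0.80 (adjusted p = 0.0234). The higher genes were NMI, which binds STAT proteins and IFI35, at 4.63, 3.74 and 3.94 FPKM in Vector and 7.79, 7.06 and 7.16 FPKM in LOC_OE (log2FC 0.71, adjusted p = 0.00816), PNPT1, a mitochondrial RNA exonuclease, with 0.75 (adjusted p = 0.0298), and LAP3, an aminopeptidase, with 0.64 (adjusted p = 0.0446). The calls of TRIM5 and HELZ2 held in all 6 leave-one-out fits. Those of NMI held in 4, of ISG20 in 3, of PNPT1 in 1 and of LAP3 in 0. The response element was present in 23 of the 42 genes of this list with a promoter window (54.8%).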

How the data were processed

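Libraries were made with a NEBNext Ultra kit, and paired ends were read on a NovaSeq instrument. The submitters' processing notes name HISAT2 2.0.4, StringTie 1.3.0 and hg38. The authors deposited 1 table of FPKM values for 58735 genes in 6 libraries, with 0 unused columns. All identifiers were found in GENCODE 29. FPKM multiplied by merged exon length gave whole reads for 100% of values (tolerance 0.02 reads), and the size divided by was the median-of-ratios size factor times the geometric mean of the totals, so no further scaling was done. The strand setting is not given in the sources used here, so overlapping genes can share reads.

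From these values, limma 3.58.1 in R 4.3.3 was fitted with a variance trend to log2(FPKM + 1), without a replicate block, for genes that reached 0.5 FPKM in 3 or more libraries. P-values were adjusted over all tested genes, and a call needed a 1.5-fold change, the study's fold, and an adjusted p-value under 0.05. Reads were refitted with limma voom. The steps were tested on simulated data. The rule named all 40 genes, the tested genes of the pathway lists, and up to 4 called genes in each direction of the further list. Of the pathway lists 1 gene is not reported here, and those not called are given by counts and examples. The genes and lists were chosen with earlier results of these data known. Promoters were RefSeq windows on GRCh38.p14, searched on both strands. Alternatives were a pseudocount of 0.1, no filter, a minimum mean FPKM of 1, rescaling to an equal sum, median-of-ratios, quantile normalization, voom, a replicate block, no fold threshold and leaving out each library, and, chosen after seeing the data, voom on genes with at least 10 reads.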

Additional observations from a re-analysis of the deposited data

How the results depend on the processing

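Of the 410 values of the 28 tested genes under the alternatives, 371 kept their direction and their side of the threshold. No called value reversed, 11 lost a call and 10 gained one. The other 18 values, not called in either fit, changed the sign of their log2 fold change. The number of interferon-stimulated genes called higher was 0, and it was 1 with no fold threshold and 0 to 1 when single libraries were left out. The number called lower was 4. It became 7 after rescaling to the same sum of FPKM, 7 by voom on genes with at least 10 reads, 2 with the replicate number as a block, and 1 to 5 when single libraries were left out, the lowest without Vector replicate 2. Rescaling to the same sum also moved the median over all 16061 genes from 0.02 to −0.18 on the log2 scale. The median of −0.36 for the list and its count of 7 under that rescaling are to be read against that shift. The share of all genes called was not computed for that rescaling, the block or the fit with no filter. By voom on genes with at least 10 reads this share was 4.87% higher and 8.00% lower. With no fold threshold it was 10.7% and 9.74%. The median of the list was −0.076 with no filter, −0.16 with a mean FPKM of at least 1 and −0.16 after quantile normalization. It was −0.22 by voom, −0.28 by voom on genes with at least 10 reads, and −0.21 to −0.11 when single libraries were left out. Of the further interferon response genes, the 3 called higher became 1 with no filter, 0 after rescaling to the same sum and 6 with no fold threshold, and 0 to 3 when single libraries were left out. The 3 called lower became 5 after rescaling to the same sum, 5 by voom on genes with at least 10 reads and 5 with no fold threshold, and 2 to 3 when single libraries were left out. For this list too, the counts after rescaling to the same sum are to be read against the shift of all genes. The causes of these changes in count and median were not tested. IFIH1 and IFI27 were called under each of the 8 alternative fits that kept all 6 libraries and the call rule, while TRIM22 was not called under quantile normalization or the block, nor IFI6 with no filter or the block. Samples with the same replicate number deviated together at correlations of 0.111, −0.0338 and 0.117, so the numbers were not taken to pair the samples, and not every library correlated best with its own number.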
